A study of Drosophila melanogaster with 16 samples.

Results

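The genes described here were the long noncoding RNA (lncRNA) genes with appreciable levels in the larval central nervous system (CNS) of Drosophila. Members were genes whose FlyBase symbol starts with lncRNA: and whose level averaged at least 5 CPM (counts of the gene per 1000000 counts in the library) over all 16 libraries. Of 17698 genes in the files, 1890 were lncRNA genes, of which 427 had no count in any library. The minimum of 5 CPM was reached by 45 lncRNA genes, and the dosage compensation RNAs roX1 and roX2 were left out by name, so that 43 members remained. Since the members were chosen on their level, levels are given as a description, and tests are given only for differences between genotypes. The members just inside the minimum were CR31044 at 5.96 CPM and CR43126 at 6.21 CPM, and the lncRNA genes just outside it were CR43148 at 4.73 CPM and CR45668 at 4.56 CPM. No member owed its place to 1 genotype alone, and 4 members (CR40469, CR32368, CR44042 and CR43126) averaged under 5 CPM in 1 of the genotypes. The symbols are shortened here by leaving out the lncRNA: prefix.

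lncRNAs are transcripts that encode no known protein, and many of them, but not all, are spliced and polyadenylated much like mRNAs. Some act as RNAs, by holding proteins together in granules or by being passed on to 1 daughter cell at division, some are the precursors of small RNAs such as microRNAs, and of some only the act of transcription is known to matter for neighbouring genes. The nervous system is one of the tissues in which lncRNAs are most often found, and most of those of Drosophila are known only by a CR number, with no role assigned.

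RNA was sequenced from the CNS of wandering larvae, in the third instar, of 4 genotypes raised at 25 °C, with 4 replicates of 20 CNSs each, as polyA libraries. In TFAM o/e, the pan-neuronal driver nsybGal4 drove UAS-TFAM3M, which overexpresses the mitochondrial transcription factor TFAM. In TFAM o/e + ATF4 RNAi, the same driver and UAS-TFAM3M were combined with UAS-ATF4 RNAi, which targets the stress transcription factor ATF4 (gene crc). In ATF4 o/e the driver was combined with UAS-ATF4-HA. The control carried the driver alone (nsybGal4/+), so that all genotypes share it, and transgenes were expressed only in the neurons of a tissue that also holds glia and neuroblasts. The questions were which genes respond to mitochondrial stress in neurons, which do so when ATF4 is overexpressed, and which change when ATF4 is knocked down under stress. Effects of a transgene and of other differences between the stocks that carry it cannot be told apart in this design. Each replicate was a separate pool of larvae, and p-values measure the spread between these pools.

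The total count was between 18215062 and 24778270 per library. The targeted gene TFAM stood at 538 ± 101 CPM in TFAM o/e, 538 ± 106 CPM in TFAM o/e + ATF4 RNAi, 80.5 ± 10.02 CPM in ATF4 o/e and 95.2 ± 25.0 CPM in control (SD, n = 4 each). The gene of ATF4, crc, stood at 203 ± 27.3 CPM in TFAM o/e, 155 ± 7.81 CPM with the RNAi added, 186 ± 5.55 CPM in ATF4 o/e and 201 ± 10.9 CPM in control. Since crc was not raised where its overexpression is labelled, these are called the libraries labelled ATF4 o/e throughout. These libraries also carry a protocol text that names 3 experimental genotypes where that of the other 12 libraries names 2, and whether all libraries were prepared together is not given in the sources used here. Summed markers of neurons, glia and neuroblasts were present in every library. Summed fat body markers had medians of 67.6 CPM in TFAM o/e, 78.5 CPM with the RNAi added, 148 CPM in the libraries labelled ATF4 o/e and 288 CPM in control, with none of the 5 genes at 0. Medians of summed glia markers were 1235 CPM in TFAM o/e, 1512 CPM with the RNAi added, 1296 CPM in the libraries labelled ATF4 o/e and 1872 CPM in control. Salivary gland markers had medians of 31.4 CPM in TFAM o/e and 55.7 CPM with the RNAi added. In the libraries labelled ATF4 o/e they had 3.45 CPM and in control 4.97 CPM. Of the ring gland markers, 3 of 6 were found in the files. Their medians were 18.5 CPM in TFAM o/e, 3.63 CPM with the RNAi added, 6.88 CPM in the libraries labelled ATF4 o/e and 39.4 CPM in control. The ring gland sums ranged from 1.53 to 32.0 CPM in TFAM o/e and from 2.59 to 63.5 CPM in control. For salivary gland and ring gland markers the ranges overlapped between all genotypes. The part of these other cell types in the results below was not tested. Control replicate 3 stood apart. The slope of its expression on exon length was 0.0551, followed by TFAM o/e replicate 2 at 0.306, against 0.375 to 0.688 in the others, and its summed neuron markers (1719 CPM) were the lowest of all libraries. Calls, median log2 fold changes, shares and the order of genotype means that change without it are given both ways. So are the members that differ at least 2-fold. Counts of groups that do not overlap and counts at an unadjusted p under 0.05 are given with it only. The same holds for median absolute changes and coefficients of variation.

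cherub and CR42862 held most of the RNA measured from these genes, with 69.6% of all counts of the 43 members. cherub, which segregates unequally when neuroblasts divide and is known from brain tumours of brat mutants, averaged 2985 CPM over the 16 libraries, and CR42862 averaged 2176 CPM. CR33938 followed at 638 CPM. In all, 7 members reached 100 CPM, 27 lay between 10 and 100 CPM and 9 lay under 10 CPM, with a median of 20.3 CPM. Protein-coding genes above the same minimum, 7456 in number, had a median of 53.5 CPM.

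**Figure D1:**
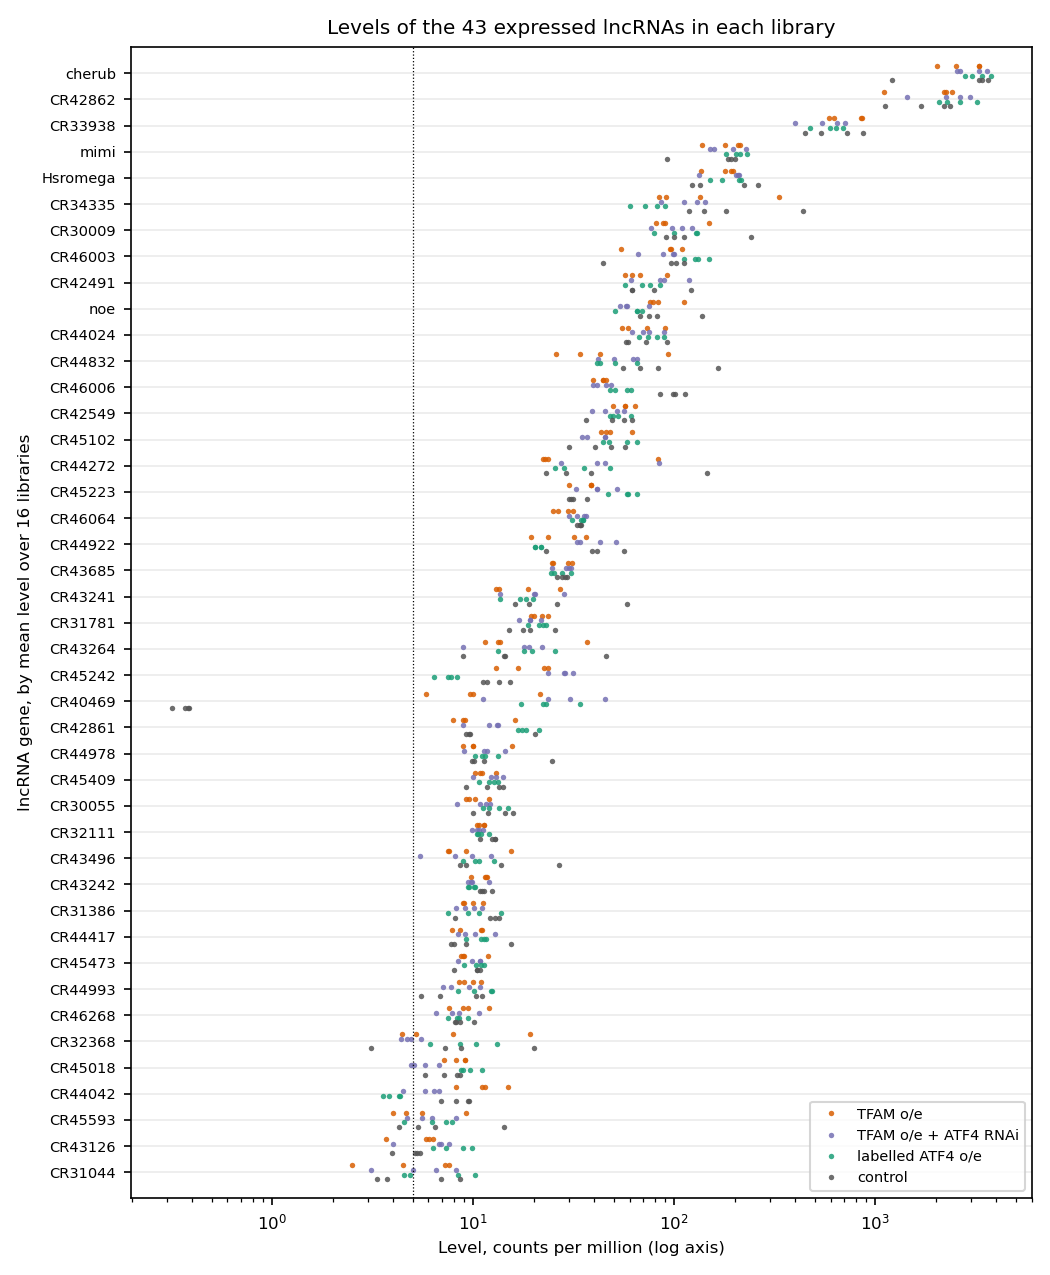
Level of each of the 43 lncRNAs (rows, ordered by mean level) in CPM on a log axis, with 1 point for each library coloured by genotype and a dotted line at the minimum of 5 CPM. The 4 control points of CR40469, between 0.316 and 0.384 CPM, lie far left of all other points of that gene, while cherub and CR42862 lie above 1000 CPM in every library.

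Per kilobase of exon the order changed. On this scale CR33938, with 505 exon bases, was the most abundant member at 1264 RPKM (CPM divided by the exon length in kilobases), followed by CR34335 and CR42862 at 397 RPKM each and cherub at 355 RPKM. Hsromega, the heat-inducible lncRNA whose nuclear transcripts organise the omega speckles that hold RNA-binding proteins, had 184 CPM but only 8.49 RPKM over its 21710 exon bases. The median of the members was 12.8 RPKM, against 22.2 RPKM for protein-coding genes above the same minimum. Only polyadenylated RNA was captured, so that a transcript without a polyA tail would be missed.

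cherub reached 3304, 2039, 2517 and 3286 CPM in TFAM o/e, 3596, 3278, 2556 and 2638 CPM in TFAM o/e + ATF4 RNAi, 3416, 2792, 3771 and 3033 CPM in the libraries labelled ATF4 o/e, and 3630.0, 3301, 1209.7 and 3396 CPM in control. The genotypes overlapped, and the lowest value by far was that of control replicate 3. CR42862 averaged 1994 ± 594 CPM in TFAM o/e, 2323 ± 658 CPM with the RNAi added, 2552 ± 491 CPM in the libraries labelled ATF4 o/e and 1835 ± 559.8 CPM in control (SD, n = 4 each), again with overlapping libraries. Its exons share 246 bases with CG33229 on the same strand, and reads from those bases cannot be assigned to either gene. mimi, which scaffolds ribonucleoprotein granules in neurons, averaged 184 ± 34.3 CPM in TFAM o/e, 183 ± 36.6 CPM with the RNAi added, 207 ± 20.6 CPM in the libraries labelled ATF4 o/e and 168 ± 50.6 CPM in control. For none of cherub, CR42862 and mimi did a comparison between genotypes pass the test.

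Members were longer than other lncRNA genes, with a median of 1429 exon bases (range 214 to 21710) against 611 bases (range 200 to 17427) in the other 1847. The minimum was set in CPM, which is not divided by exon length, so a longer gene reaches it more easily. The choice of members thus favours length, and these lengths are a description. After merging transcripts, 23 members had 1 exon and 20 had more. They lay on all major arms, with 12 on 3R, 10 on X, 8 on 3L, 6 each on 2L and 2R and 1 on chromosome 4. Of the 43, 19 overlapped no other annotated gene and 16 shared exon bases with one, 12 of them on the same strand and 5 on the other. The longest such stretches were 2313 bases of CR46268 with CG17490, which had almost no counts of its own, and 1433 bases of CR45018 with IP3K2, a kinase of inositol phosphates. The libraries were made with a strand-specific kit, but the strand setting of the counting is not given in the sources used here, so that reads of the 5 antisense pairs may not be separable.

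Several members are known or annotated as hosts of small RNAs. CR46006 contains mir-276a, a microRNA known for its role in olfactory memory of flies, and CR31044 contains mir-279 and mir-996, which act in sensory neuron development and circadian behaviour. Hsromega contains mir-4951, and mimi shares 67 bases with mir-9381. CR42491 contains the small nucleolar RNA Psi18S-531, which guides a modification of ribosomal RNA, and shares 377 exon bases with the ribosomal protein gene RpL22. The genes of mir-276a, mir-279, mir-996 and mir-4951 had 0 counts in every library, while mir-9381 averaged 0.698 CPM, so that the values below are those of the host transcripts, and a polyA library does not measure the mature microRNAs. CR42491 averaged 69.7 ± 15.5 CPM in TFAM o/e, 88.6 ± 23.6 CPM with the RNAi added, 71.8 ± 11.7 CPM in the libraries labelled ATF4 o/e and 81.3 ± 28.1 CPM in control (SD, n = 4 each). CR31044 averaged 5.46 ± 2.41 CPM in TFAM o/e, 5.73 ± 2.20 CPM with the RNAi added, 7.0 ± 2.74 CPM in the libraries labelled ATF4 o/e and 5.64 ± 2.52 CPM in control. Neither passed the test in any comparison.

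The share of a library's counts that fell on the 43 members was 0.706 ± 0.0853% in TFAM o/e, 0.747 ± 0.102% in TFAM o/e + ATF4 RNAi, 0.799 ± 0.0754% in the libraries labelled ATF4 o/e and 0.715 ± 0.110% in control (SD, n = 4 each). The ranges overlapped between all genotypes, from 0.558% in control replicate 3 to 0.860% in replicate 1 of the libraries labelled ATF4 o/e. The lowest shares after control replicate 3 were those of TFAM o/e replicate 2 (0.589%) and TFAM o/e + ATF4 RNAi replicate 3 (0.618%). Without cherub and CR42862 the mean share was 0.228% in TFAM o/e, 0.213% with the RNAi added, 0.218% in the libraries labelled ATF4 o/e and 0.243% in control, or 0.216% in control without replicate 3. Over all 43 members the mean of the controls without replicate 3 was 0.768%.

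Most members differed little between genotypes. The highest genotype mean was under 1.5-fold of the lowest for 28 members, between 1.5-fold and 2-fold for 9 and at least 2-fold for 6, namely CR40469 (76.0-fold), CR45242 (3.73-fold), CR34335 (2.88-fold), CR44042 (2.86-fold), CR46006 (2.28-fold) and CR32368 (2.01-fold). Without control replicate 3 there were also 6 members of at least 2-fold, with CR44922 (2.16-fold) in place of CR32368 (1.96-fold), and CR34335 was at 2.11-fold. The smallest ranges were those of CR43685 (1.06-fold), Hsromega (1.07-fold, or 1.18-fold without control replicate 3) and CR45473 (1.08-fold). Replicates of a genotype varied more for the members than for protein-coding genes of at least 5 CPM, with a median coefficient of variation of 20.3% against 13.5%. The members also had a lower median level (20.3 against 53.5 CPM). The genes were not matched on level or length, and control replicate 3 is included. Whether the difference is a trait of lncRNAs as such was not tested. In this bulk tissue, fewer cells of a type and less RNA per cell cannot be told apart.

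**Figure D2:**
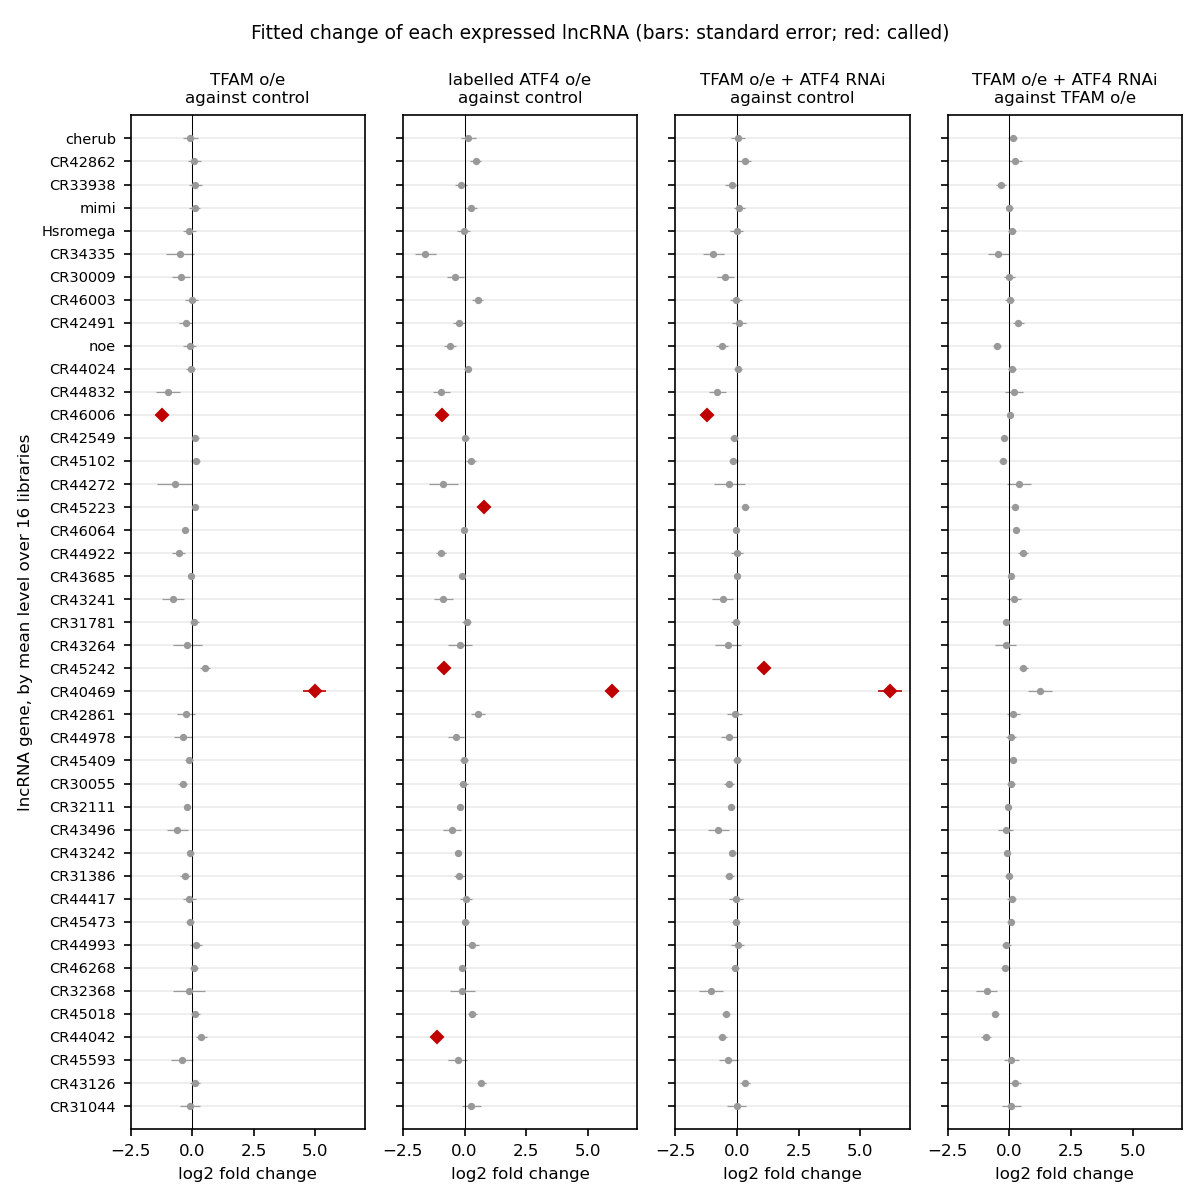
Fitted log2 fold change of each of the 43 lncRNAs (rows, ordered by mean level) in the 4 comparisons, with standard errors as bars and red diamonds for members called at an adjusted p under 0.05 and a change of at least 1.2-fold. CR40469 lies near 5 or 6 in each comparison against control, and no member is called between TFAM o/e + ATF4 RNAi and TFAM o/e.

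With TFAM overexpression, CR40469 rose and CR46006 fell against control, and the other 41 members did not pass the test. A member was called at a Benjamini-Hochberg adjusted p under 0.05 in edgeR's quasi-likelihood test over all genes tested, with a change of at least 1.2-fold. The 2 calls among 43 members, 1 in each direction, compare with 0.299% of the 9355 genes tested, of which 0.267% were called higher and 0.0321% lower. The median log2 fold change of the members was -0.10, against -0.01 over all genes tested, and 41 members were within 2-fold. Without control replicate 3 the members' median was 0.05, so its sign rests on that library. Besides the called genes, the groups did not overlap for 1 member, CR46064, which was lower in TFAM o/e (31.6, 29.6, 24.9 and 26.6 CPM) than in control (32.8, 34.3, 34.1 and 34.1 CPM). Its log2 fold change of -0.30 had an adjusted p of 0.88 in edgeR, and its exons share 735 bases with CR43281 on the other strand. Groups that do not overlap were found for 3.46% of all genes tested.

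CR40469 was the member that differed most. It lies alone on X (122493 to 122706, plus strand, build dm6) as a single exon of 214 bases, and no role is assigned to it here. Its level was 10.04, 21.6, 5.81 and 9.64 CPM in TFAM o/e, against 0.381, 0.316, 0.384 and 0.371 CPM in control. All 4 control libraries were near 0, with 7 to 9 counts each, against 144 to 452 counts in TFAM o/e, and the groups were far apart. The log2 fold change was 4.98 (SE 0.47, adjusted p = 0.00262 in edgeR), or 31.5-fold.

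CR40469 was also high in the other genotypes that carry a UAS transgene. It reached 23.7, 11.2, 30.2 and 45.3 CPM in TFAM o/e + ATF4 RNAi (268 to 1058 counts), 6.21 above control on the log2 scale (SE 0.49, adjusted p = 0.000781 in edgeR). In the libraries labelled ATF4 o/e it reached 22.2, 23.0, 17.3 and 34.0 CPM (398 to 778 counts), with a log2 fold change of 6.0 against control (SE 0.27, adjusted p = 1.44e-05 in edgeR). Every library of the 3 genotypes with a transgene was above every control library. These comparisons share the 4 control libraries. Between TFAM o/e + ATF4 RNAi and TFAM o/e, CR40469 had a log2 fold change of 1.24 (SE 0.47), with an adjusted p of 0.722 and overlapping libraries.

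Of the genes within 50 kb of CR40469 that are not members, 3 passed the filter on low counts, and none of these was called in any comparison. RhoGAP1A, the nearest of them at 4.74 kb, averaged 279 CPM in TFAM o/e, 254 CPM with the RNAi added, 296 CPM in the libraries labelled ATF4 o/e and 244 CPM in control. The member CR45473, 18 kb away, averaged 9.60 CPM in TFAM o/e, 9.95 CPM with the RNAi added, 10.4 CPM in the libraries labelled ATF4 o/e and 9.94 CPM in control. The call of CR40469 against control was made under all 15 alternatives in each of the 3 comparisons, which included leaving out each library. The size of the fold change moved with 1 alternative, DESeq2 with its prior, which shrinks fold changes and gave log2 values of 1.84 in TFAM o/e, 1.62 with the RNAi added and 3.97 in the libraries labelled ATF4 o/e. Whether the gene's sequence differs between the stocks was not tested.

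**Figure D3:**
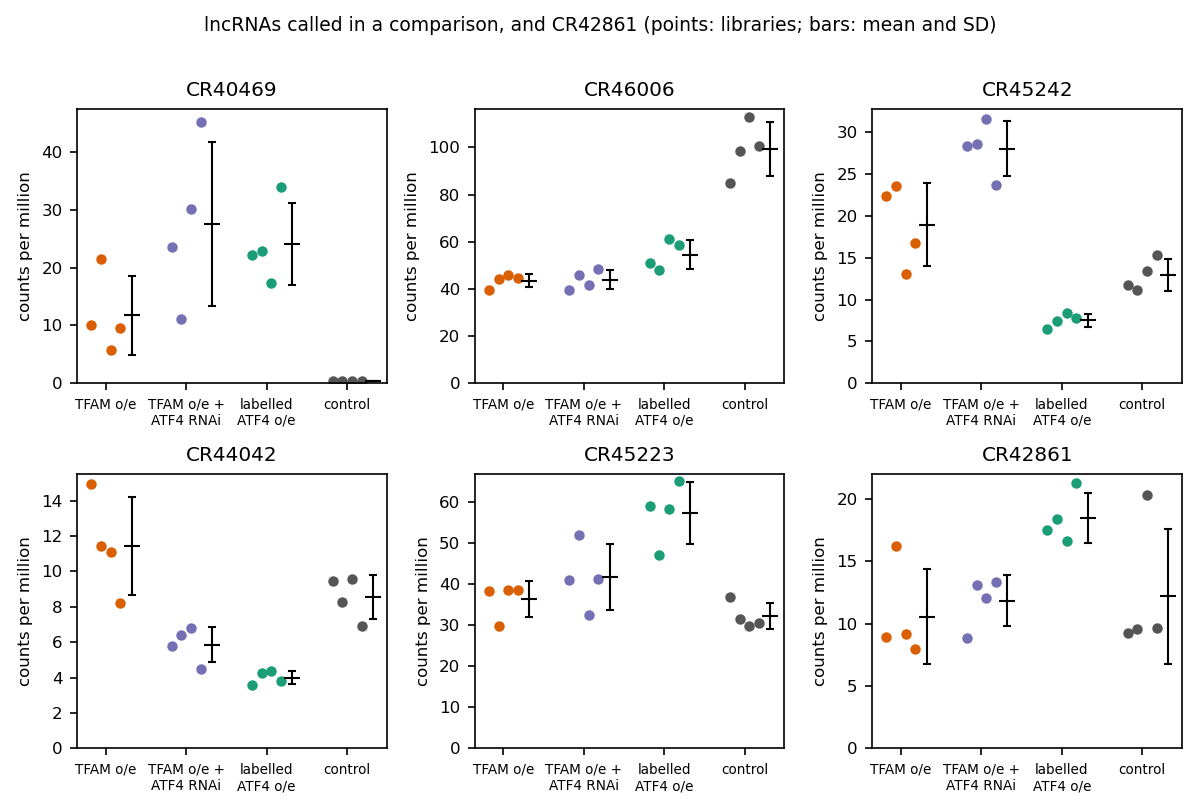
Level in CPM of the 5 lncRNAs called in a comparison and of CR42861, with 1 point for each library, 4 libraries for each genotype, and bars for the mean and SD beside them. Control libraries of CR40469 lie near 0, those of CR46006 lie above all others, and for CR42861 control replicate 3 at 20.3 CPM lies apart from the other controls near 9.5 CPM.

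CR46006, the host transcript of mir-276a, was lower in every genotype with a transgene than in control. Its level was 39.7, 44.1, 45.9 and 44.4 CPM in TFAM o/e and 39.6, 45.8, 41.5 and 48.5 CPM in TFAM o/e + ATF4 RNAi. It was 50.9, 47.8, 61.0 and 58.5 CPM in the libraries labelled ATF4 o/e, against 84.8, 98.6, 113 and 101 CPM in control. The lowest control library was above the highest library of any other genotype, with or without control replicate 3. The log2 fold change against control was -1.23 (SE 0.13) in TFAM o/e with an adjusted p of 0.00388, -1.22 (SE 0.14) with the RNAi added with an adjusted p of 0.0037, and -0.91 (SE 0.13) in the libraries labelled ATF4 o/e with an adjusted p of 0.02 (edgeR). These folds share the control libraries. Between TFAM o/e + ATF4 RNAi and TFAM o/e the libraries overlapped. mir-276a has a position on 3L from 10365228 to 10365325, inside the host's span from 10323501 to 10367450.

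CR45242 differed in opposite directions. It lies on the same strand of 3L as CR46006 (10269482 to 10270353, 872 bases, 1 exon). It reached 22.4, 23.5, 13.1 and 16.8 CPM in TFAM o/e and 28.3, 28.6, 31.5 and 23.6 CPM in TFAM o/e + ATF4 RNAi. It stood at 6.42, 7.48, 8.35 and 7.79 CPM in the libraries labelled ATF4 o/e, against 11.7, 11.2, 13.5 and 15.3 CPM in control. The order of the means was thus the libraries labelled ATF4 o/e, control, TFAM o/e and TFAM o/e + ATF4 RNAi, and only TFAM o/e overlapped with a neighbour, namely control. Against control it rose when TFAM overexpression and ATF4 RNAi were combined, by a log2 fold change of 1.08 (SE 0.14, adjusted p = 0.00825 in edgeR), and fell by 0.82 on the log2 scale in the libraries labelled ATF4 o/e (SE 0.15, adjusted p = 0.0454). In TFAM o/e alone the log2 fold change of 0.52 did not pass the test (adjusted p = 0.88 in edgeR). That of 0.57 between TFAM o/e + ATF4 RNAi and TFAM o/e did not pass it either (adjusted p = 0.471). Every library with the RNAi was above every one without it, but by a narrow margin, the closest being 23.6 against 23.5 CPM.

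CR45242 and CR46006 are neighbours of another member, CR46003, within 98.0 kb of 3L. This stretch held 7 genes of the files, of which 1, the odorant receptor gene Or67d, encodes a protein. CR46003 lies between the other two on the minus strand, as 1 exon of 21024 bases, 16.6 kb from CR45242 and 15.5 kb from CR46006. Its level was 96.0, 54.4, 95.3 and 109 CPM in TFAM o/e and 99.0, 99.5, 65.8 and 88.2 CPM with the RNAi added. It was 149, 112, 132 and 127 CPM in the libraries labelled ATF4 o/e, against 102, 96.7, 44.5 and 112 CPM in control. The libraries labelled ATF4 o/e were all above control, by a narrow margin, and control replicate 3 was the lowest of all. The log2 fold change was 0.53 (SE 0.24, adjusted p = 0.53 in edgeR), and 0.33 without control replicate 3 (adjusted p = 0.249), so that no call was made.

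Neighbours on 3L thus did not share a pattern. In the libraries labelled ATF4 o/e, CR45242 and CR46006 fell while CR46003 between them had a value above control that was not called. With TFAM overexpression and ATF4 RNAi combined, CR45242 rose and CR46006 fell. CR46004, a lncRNA gene below the minimum that contains mir-276b and shares 455 exon bases with CR46003 on the other strand, averaged 3.85 CPM in TFAM o/e, 3.09 CPM with the RNAi added, 5.24 CPM in the libraries labelled ATF4 o/e and 3.41 CPM in control. Its log2 fold change of 0.58 in the libraries labelled ATF4 o/e was not called (adjusted p = 0.234 in edgeR), and without a known strand setting its counts and those of CR46003 may not be separable. Of the other genes within 50 kb of CR46006 or CR45242 that passed the filter, none was called in any comparison.

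**Figure D4:**
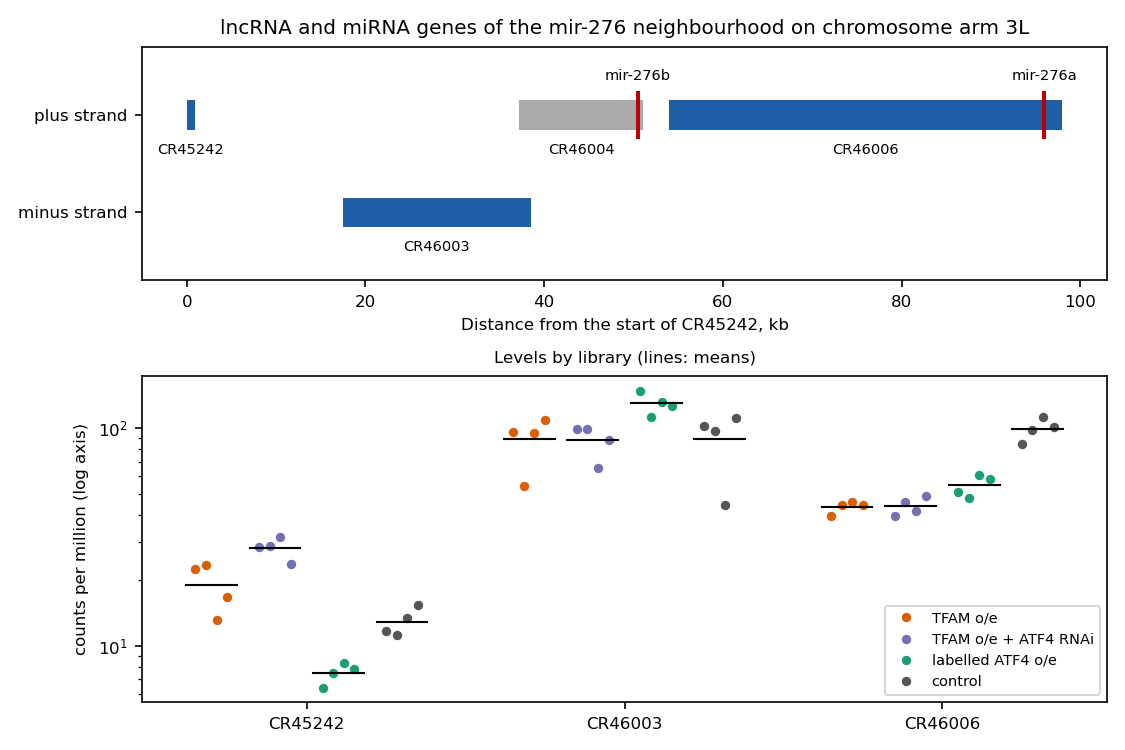
Upper panel, gene spans by strand along 3L as the distance in kb from the start of CR45242, with the 3 members in blue, CR46004 in grey and microRNAs in red. Lower panel, level of the 3 members in CPM on a log axis, with 1 point for each library and lines for the mean, in which CR46006 is highest in control, CR46003 is highest in the libraries labelled ATF4 o/e and CR45242 is highest in TFAM o/e + ATF4 RNAi.

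Combining TFAM overexpression with ATF4 RNAi gave 3 calls against control, CR40469 and CR45242 higher and CR46006 lower, against 0.563% of the 9421 genes tested (0.393% called higher and 0.17% lower). The median log2 fold change of the members was -0.10, against -0.02 over all genes tested, and 0.01 without control replicate 3. The groups did not overlap for 4 members, against 3.46% of all genes tested, and the member beyond the 3 called was CR44042, with an adjusted p of 0.52 in edgeR. The 3 calls stood when each library was left out in turn.

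Adding ATF4 RNAi to TFAM overexpression gave no call among the members, against 0.551% of the 9436 genes tested. At an unadjusted p under 0.05 there were 7 members, 4 higher and 3 lower, against 5.81% of all genes tested. DESeq2 called 2 members, CR44042 and CR45018, both lower, and the share of all genes it called is not given here. The groups did not overlap for 4 members, against 3.71% of all genes tested, with CR45242 higher and CR44042, CR45018 and noe lower with the RNAi. CR45018 stood at 5.77, 6.77, 4.90 and 5.09 CPM in TFAM o/e + ATF4 RNAi, against 9.16, 8.26, 9.08 and 7.17 CPM in TFAM o/e. All libraries with the RNAi were lower, and the log2 fold change of -0.57 (SE 0.15) had an adjusted p of 0.238 in edgeR. noe, first described as a transcript of the nervous system, stood at 57.3, 54.1, 58.5 and 75.2 CPM with the RNAi, against 83.6, 112, 75.8 and 78.9 CPM in TFAM o/e. The gap between the groups was under 1 CPM, and the log2 fold change of -0.51 (SE 0.16) had an adjusted p of 0.471. The median log2 fold change of the members was 0.06, against 0.00 over all genes tested, and -0.02 without TFAM o/e + ATF4 RNAi replicate 4.

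CR44042 was called in the libraries labelled ATF4 o/e. This single exon of 1001 bases on 2R (1348167 to 1349167, minus strand) lies 225 bases from l(2)41Ab. Its level was 14.9, 11.5, 11.1 and 8.19 CPM in TFAM o/e, 5.77, 6.39, 6.77 and 4.49 CPM with the RNAi added, 3.58, 4.26, 4.35 and 3.81 CPM in the libraries labelled ATF4 o/e, and 9.48, 8.27, 9.55 and 6.90 CPM in control. The libraries labelled ATF4 o/e were below all others, and those with the RNAi were below both TFAM o/e and control. Against control it fell by 1.14 on the log2 scale in the libraries labelled ATF4 o/e (SE 0.17, adjusted p = 0.0197 in edgeR). Between TFAM o/e + ATF4 RNAi and TFAM o/e its log2 fold change of -0.96 (SE 0.19) had an adjusted p of 0.0885, and of 0.0367 when TFAM o/e replicate 4 was left out. l(2)41Ab averaged 21.1 ± 0.582 CPM in the libraries labelled ATF4 o/e and 22.7 ± 1.73 CPM in control and was not called in any comparison. Yeti, 3.05 kb away, averaged 224 ± 21.7 CPM in the libraries labelled ATF4 o/e and 334 ± 21.2 CPM in control. Its log2 fold change of -0.62 was not called (adjusted p = 0.0636 in edgeR). CR44043, a lncRNA gene below the minimum and 19.75 kb away, averaged 3.39 ± 0.429 CPM against 0.994 ± 0.622 CPM. Its log2 fold change of 1.73 was not called (adjusted p = 0.113).

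The libraries labelled ATF4 o/e gave the most calls, 5 members against 0.765% of the 9410 genes tested. CR40469 and CR45223 rose, against 0.383% of all genes tested called higher, and CR44042, CR46006 and CR45242 fell, against 0.383% called lower. At an unadjusted p under 0.05 there were 10 members, 3 higher and 7 lower, against 8.91% of all genes tested. The groups did not overlap for 11 members, against 6.74% of all genes tested. The median log2 fold change of the members was -0.09, and 0.10 without control replicate 3. The median of the absolute log2 fold change was 0.28, against 0.20 over all genes tested. The number of calls changed in every fit that left out 1 library. When a library labelled ATF4 o/e was left out, 2 members were called without replicate 2 and 1 member without replicate 1, replicate 3 or replicate 4. When a control was left out, 4 members were called without replicate 1, 1 member without replicate 2, 8 members without replicate 3 and 2 members without replicate 4. The share of all genes tested that was called in each of these fits is not given here, so these counts are a description. Only CR40469 was called in every one of these fits. The other 4 kept their direction under all 15 alternatives, which include these fits. Over those alternatives the adjusted p values reached 0.104 for CR46006, 0.0975 for CR44042, 0.121 for CR45223 and 0.186 for CR45242 (edgeR).

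CR45223, a lncRNA of 6258 exon bases on 3R (17646903 to 17653478, minus strand), reached 59.0, 47.1, 58.2 and 65.1 CPM in the libraries labelled ATF4 o/e, against 37.0, 31.6, 29.9 and 30.7 CPM in control. The groups did not overlap, and the log2 fold change was 0.79 (SE 0.12, adjusted p = 0.0238 in edgeR), with the same value without control replicate 3. It averaged 36.4 ± 4.32 CPM in TFAM o/e and 41.7 ± 8.01 CPM with the RNAi added (SD, n = 4 each), neither of which was called against control. CG14322, with which it shares 477 exon bases on the other strand, averaged 101 ± 8.66 CPM in the libraries labelled ATF4 o/e and 84.5 ± 19.8 CPM in control and was not called.

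Members that were not called in the libraries labelled ATF4 o/e but separated from control included CR34335, CR44922 and CR43126. CR34335, which lies within the span of the cell surface receptor gene DIP-alpha, stood at 60.2, 71.9, 82.1 and 90.3 CPM in the libraries labelled ATF4 o/e, against 118, 141, 436 and 181 CPM in control. The groups did not overlap, and control replicate 3 was far above the rest. Its log2 fold change was -1.59 (SE 0.41, adjusted p = 0.203 in edgeR) with all libraries and -0.95 (SE 0.16, adjusted p = 0.0245) without control replicate 3. CR44922 stood at 21.7, 20.4, 21.8 and 20.3 CPM in the libraries labelled ATF4 o/e, against 38.9, 41.2, 23.1 and 56.3 CPM in control. Here control replicate 3 was the lowest control, and the log2 fold change was -0.95 (SE 0.21, adjusted p = 0.111) with it and -1.11 (SE 0.12, adjusted p = 0.00226) without it. CR43126 stood at 9.83, 7.31, 6.35 and 8.92 CPM in the libraries labelled ATF4 o/e, against 5.29, 5.15, 3.95 and 5.42 CPM in control. It had a log2 fold change of 0.68 (SE 0.18, adjusted p = 0.202), and was called by DESeq2 (adjusted p = 0.0286). With all libraries DESeq2 also called CR34335 (adjusted p = 0.00653) and CR44922 (adjusted p = 0.00578).

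CR42861 was called when control replicate 3 was left out. Its level was 17.5, 18.4, 16.7 and 21.3 CPM in the libraries labelled ATF4 o/e, against 9.27, 9.58, 20.3 and 9.68 CPM in control. Among the controls, 3 lay between 9.27 and 9.68 CPM, and control replicate 3 was as high as the libraries labelled ATF4 o/e. The log2 fold change was 0.54 (SE 0.28, adjusted p = 0.53 in edgeR), and 0.96 (SE 0.11, adjusted p = 0.00299) without control replicate 3. It averaged 10.6 ± 3.80 CPM in TFAM o/e and 11.8 ± 2.05 CPM with the RNAi added. CR34335, CR44922, CR43126 and CR42861 were picked out for this after their values were seen.

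Control replicate 3 was the highest of all 16 libraries for 20 members, with a median of 985 exon bases, and the lowest for 6 members, with a median of 4113 exon bases. All 15 members with under 1 kb of exon were higher in it than the mean of the other 3 controls, with a median ratio of 2.35, as were 15 of the 28 members of 1 kb or more, with a median ratio of 1.02. The ratio was between 0.351 for cherub and 4.85 for CR44272. TFAM o/e replicate 2, the library with the next lowest slope on exon length, was also high for CR44272 (83.1 CPM, against 22.2 to 23.7 CPM in the other TFAM o/e libraries). CR44272 with 372 exon bases reached 23.7, 83.1, 22.2 and 22.7 CPM in TFAM o/e and 23.0, 28.9, 146 and 38.5 CPM in control, and its genotypes overlapped. The part of RNA quality or of library preparation in these values was not tested.

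**Figure D5:**
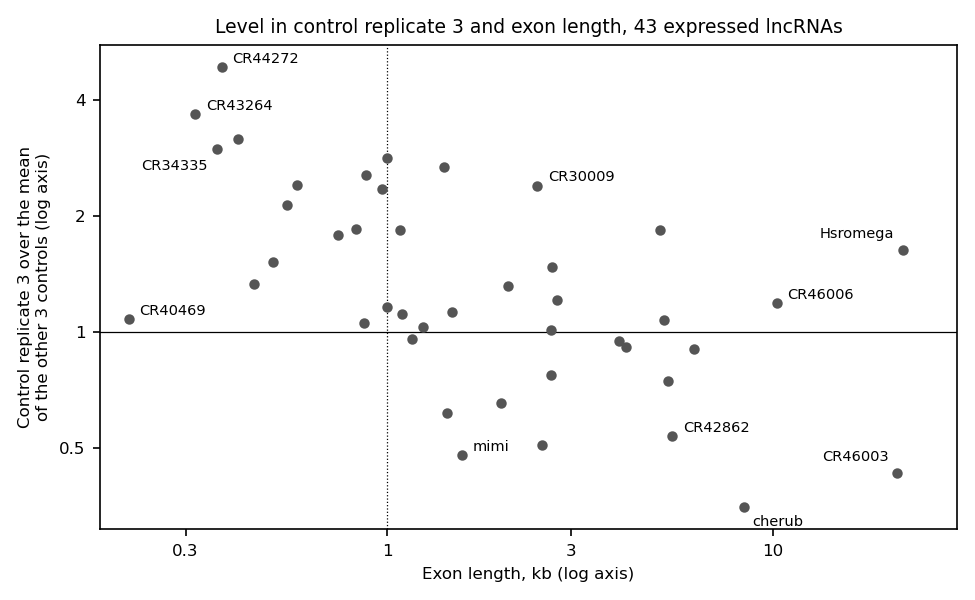
Level of each of the 43 lncRNAs in control replicate 3 divided by the mean of the other 3 controls (vertical, log axis) against exon length in kb (horizontal, log axis), with a solid line at equal levels and a dotted line at 1 kb. All 15 points left of 1 kb lie above the solid line, and cherub at 0.351 is the lowest point.

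Hsromega had similar means in all genotypes, at 176 ± 27.1 CPM in TFAM o/e, 189 ± 37.5 CPM with the RNAi added, 187 ± 30.9 CPM in the libraries labelled ATF4 o/e and 185 ± 67.1 CPM in control (SD, n = 4 each). Its libraries spanned 123 to 261 CPM, and both ends were controls. Of a list of 21 genes for omega speckle proteins and heat shock proteins, which are known to be induced together with Hsromega by heat, 1 of 16 tested was called in TFAM o/e against control, 1 of 15 in the libraries labelled ATF4 o/e and 1 of 17 with TFAM overexpression and ATF4 RNAi combined, against 0.299%, 0.765% and 0.563% of all genes tested in these comparisons. In each it was the chaperone gene Hsp70Bb, which was higher. Hsp70Bb averaged 114 ± 33.0 CPM in TFAM o/e, 174 ± 26.6 CPM with the RNAi added, 81.7 ± 15.6 CPM in the libraries labelled ATF4 o/e and 23.0 ± 8.66 CPM in control. Its log2 fold change against control was 2.28 in TFAM o/e (adjusted p = 0.0227 in edgeR), 2.89 with the RNAi added (adjusted p = 0.00172) and 1.80 in the libraries labelled ATF4 o/e (adjusted p = 0.0225). Hsp70Bb shares sequence with near-identical Hsp70 copies, so that the copy is uncertain. Whether these counts come from an endogenous Hsp70 gene was not tested. Between TFAM o/e + ATF4 RNAi and TFAM o/e, 1 of 16 was called, against 0.551% of all genes tested, namely the small heat shock protein gene Hsp26, at 163 ± 24.8 CPM with the RNAi and 277 ± 29.9 CPM without it (log2 fold change -0.76, adjusted p = 0.032). The median log2 fold change of the list was 0.05 in TFAM o/e, 0.09 in the libraries labelled ATF4 o/e and 0.00 with the RNAi added, all against control, and -0.05 for adding the RNAi.

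The remaining members of the 10 most abundant overlapped between all genotypes. CR33938 averaged 729 ± 143 CPM in TFAM o/e, 575 ± 135 CPM with the RNAi added, 602 ± 94.1 CPM in the libraries labelled ATF4 o/e and 646 ± 188 CPM in control. CR30009 averaged 102 ± 31.8 CPM in TFAM o/e, 102 ± 19.6 CPM with the RNAi added, 109 ± 23.9 CPM in the libraries labelled ATF4 o/e and 136 ± 71.1 CPM in control, or 101 ± 10.6 CPM in control without replicate 3. CG12911, a protein-coding gene within 1 kb of CR30009, was called higher than control in the libraries labelled ATF4 o/e (18.6 ± 1.68 against 10.1 ± 2.28 CPM, adjusted p = 0.0447 in edgeR) and with TFAM overexpression and ATF4 RNAi combined (24.4 ± 3.49 CPM, adjusted p = 0.0143), while CR30009 itself was not. No other gene that overlaps a member or lies within 1 kb of one was called in any comparison.

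CR43685 had the most even genotype means of all 43 members, at 27.6 ± 3.18 CPM in TFAM o/e, 28.6 ± 2.69 CPM with the RNAi added, 27.0 ± 2.88 CPM in the libraries labelled ATF4 o/e and 28.0 ± 1.29 CPM in control. CR32111 varied little between replicates, at 11.0 ± 0.469 CPM in TFAM o/e, 10.6 ± 0.539 CPM with the RNAi added, 11.0 ± 0.660 CPM in the libraries labelled ATF4 o/e and 12.2 ± 0.963 CPM in control. At the other end, CR32368, with 410 exon bases, varied mostly between replicates, with 4.44 to 19.3 CPM in TFAM o/e, 4.39 to 5.48 CPM with the RNAi added, 6.08 to 13.2 CPM in the libraries labelled ATF4 o/e and 3.09 to 20.1 CPM in control. Its 2.01-fold range of genotype means therefore lay within the spread of its replicates. The genotype with the highest mean was TFAM o/e for 4 members, TFAM o/e + ATF4 RNAi for 7, that of the libraries labelled ATF4 o/e for 16 and control for 16. Without control replicate 3 it was TFAM o/e for 7 members, TFAM o/e + ATF4 RNAi for 9, that of the libraries labelled ATF4 o/e for 21 and control for 6, and without a test of each these counts are a description.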

How the data were processed

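PolyA libraries of 16 samples of larval CNS, 4 for each of 4 genotypes, were sequenced as 75-bp single-end reads from a TruSeq Stranded kit. According to the submitters' processing notes and the study's methods, the authors checked reads with FastQC 0.52, mapped them to dm6 with Bowtie2 2.3.4.2 and counted them per gene with featureCounts 1.6.3. The deposited values are raw counts, not normalized, for 17698 genes, with library totals between 18215062 and 24778270. The annotation and strand setting of the counting are not given in the sources used here. Symbols, positions and exon lengths came from BDGP release 6 (Ensembl release 115), which named 17559 genes.

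Levels are CPM over all counts of a library, and RPKM divides them by merged exon length. Genotypes were compared in R 4.3.3 with edgeR 4.0.16 (TMM, filterByExpr, quasi-likelihood test) on the 8 libraries of each pair, with Benjamini-Hochberg adjustment over all genes tested. All 43 members passed the filter in every comparison. Calls needed a change of 1.2-fold or more and an adjusted p under 0.05, as in the study's methods, where DESeq2 gave the p. The study's further condition, a minimum FPKM of 1 in a condition, was not applied, and all 43 members had a genotype mean of at least 1 RPKM. The test was tried on simulated data. Exact permutation tests of 4 against 4 libraries cannot go below p = 0.0286. Replicates differed by more than sampling noise (chi-square per degree of freedom 6.82 to 279). Deviations from genotype means correlated above 0.1 for 2, 1, 1 and 3 of 4 replicate numbers in the 4 comparisons, so the numbers were not taken as pairs.

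The members and gene lists were chosen with earlier results of these data known. The text names the 10 most abundant members, up to 8 called members in each direction and comparison, members with a name or a hosted small RNA, those beside the minimum of 5 CPM and genes within 1 kb of a called member, and further members where the text says so or where groups separated. Alternatives were DESeq2 1.42.0 with and without its prior, its size factors, no filter on low counts, all genotypes in 1 fit, the replicate block, the length slope as a covariate, other fold thresholds and leaving out each library. Shares, fold ranges and the order of genotype means without control replicate 3 were added after seeing the data. A planned search of promoters for motifs was not run, since no sequence was used here.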

Additional observations from a re-analysis of the deposited data

Results flagged for a closer look

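In 21 of 172 sets of 4 replicates of a member, 1 library lay far from the other 3 by Dixon's ratio, where chance gives about 1 in 20. Of these, 7 were in control replicate 3 and 7 in TFAM o/e replicate 2, the libraries with the lowest slopes on exon length. Their part in these values was not tested.

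In control replicate 3, cherub was low at 1209.7 CPM (others 3301 to 3630.0 CPM) and mimi was low at 92.6 CPM (others 186 to 201 CPM). High there were CR30009 at 242 CPM (others 91.0 to 112 CPM), CR44272 at 146 CPM (others 23.0 to 38.5 CPM), CR43264 at 46.1 CPM (others 8.89 to 14.4 CPM), CR42861 at 20.3 CPM (others 9.27 to 9.68 CPM) and CR44978 at 24.6 CPM (others 9.91 to 11.4 CPM).

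In TFAM o/e replicate 2, CR42862 was low at 1112 CPM (others 2196 to 2408 CPM) and CR45223 was low at 29.9 CPM (others 38.4 to 38.6 CPM). High there were CR30009 at 149.8 CPM (others 81.3 to 90.5 CPM), CR44272 at 83.1 CPM (others 22.2 to 23.7 CPM), CR43264 at 37.0 CPM (others 11.5 to 13.6 CPM), CR42861 at 16.2 CPM (others 7.98 to 9.16 CPM) and CR44978 at 15.7 CPM (others 8.88 to 10.01 CPM).

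Elsewhere, Hsromega was low in TFAM o/e + ATF4 RNAi replicate 1 at 133 CPM (others 204 to 211 CPM). CR46064 was low in replicate 2 of the libraries labelled ATF4 o/e at 31.1 CPM (others 34.5 to 35.2 CPM) and in control replicate 1 at 32.8 CPM (others 34.1 to 34.3 CPM). CR43242 was low in TFAM o/e replicate 4 at 9.73 CPM (others 11.5 to 11.8 CPM) and high in TFAM o/e + ATF4 RNAi replicate 1 at 12.02 CPM (others 9.49 to 9.85 CPM). CR45473 was high in TFAM o/e replicate 1 at 11.9 CPM (others 8.70 to 8.98 CPM) and low in control replicate 2 at 8.04 CPM (others 10.4 to 10.9 CPM).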

How the results depend on the processing

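The numbers of members called were 2 for TFAM o/e against control, 5 for the libraries labelled ATF4 o/e against control, 3 for TFAM o/e + ATF4 RNAi against control and 0 for adding the RNAi to TFAM o/e. With the replicate number as a block, 1 member was called for TFAM o/e, 1 for the libraries labelled ATF4 o/e, 3 for TFAM o/e + ATF4 RNAi against control and 0 for adding the RNAi. The numbers paired the libraries only in part. Deviations of replicate 1 correlated at 0.609 to 0.720 over the comparisons, while those of the other numbers were negative in most. DESeq2, with and without its prior, called 8 members in the libraries labelled ATF4 o/e and 2 for adding the RNAi. With the length slope as a covariate the calls were 8 in the libraries labelled ATF4 o/e, 5 for TFAM o/e + ATF4 RNAi against control and 2 for adding the RNAi, and with all genotypes in 1 fit 1 for adding the RNAi. Leaving out each library in turn gave 2 calls each time for TFAM o/e, 1 to 8 for the libraries labelled ATF4 o/e, 3 each time for TFAM o/e + ATF4 RNAi against control and 0 to 1 for adding the RNAi, the 1 being CR44042 without TFAM o/e replicate 4. The share of all genes called under each alternative is not given here, so these numbers do not show whether members differ from other genes. The cause of the differences between alternatives was not tested. Exons of 27 members overlap no other gene. Over genes of this kind, the share of counts in these 27 members was 0.692% in the libraries labelled ATF4 o/e. The share of all members over all counts was 0.799%. CR42862, which shares 246 exon bases with CG33229, is not among the 27. These shares cover different members and different totals, so their difference does not measure an effect of overlap alone.

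Direction was followed for 30 pairs of a member and a comparison. These had an unadjusted p under 0.05 in edgeR with all libraries, or a call under at least 1 alternative. No log2 fold change among them turned its direction under any alternative run. The pairs were picked for their changes, so this does not extend to the other pairs. The calls of CR40469 against control in all 3 comparisons, and of CR46006 and CR45242 for TFAM o/e + ATF4 RNAi against control, were made under all 15 alternatives. CR46006 in TFAM o/e missed the threshold with the block (adjusted p = 0.0553 in edgeR). The members' median log2 fold change in the libraries labelled ATF4 o/e was -0.09, and 0.10 with the length covariate and also 0.10 without control replicate 3. Counting error is largest for the members near 5 CPM, and with 4 libraries for each genotype a change that was not called may still be present.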
